A study of Mus musculus with 4 samples.

Results

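The diacylglycerol kinases are the enzymes that phosphorylate the membrane lipid diacylglycerol to phosphatidic acid. The 9 genes described here, Dgka, Dgkb, Dgkd, Dgke, Dgkg, Dgkh, Dgki, Dgkq and Dgkz, were taken by name as a listed family. All 9 were present among the 20211 gene symbols shared by the 4 deposited libraries. Diacylglycerol is made from phosphoinositides by phospholipase C and activates protein kinase C, RasGRP, Munc13 and some TRPC channels. The same lipid is the substrate of the diacylglycerol lipases, which make the endocannabinoid 2-arachidonoylglycerol (2-AG), and monoacylglycerol lipase (MAGL, gene Mgll) breaks 2-AG down. Diacylglycerol kinases therefore share a substrate with the 2-AG pathway that the study's genotypes target. By textbook classes, Dgka, Dgkb and Dgkg encode type I kinases with calcium-binding EF hands, Dgkd and Dgkh type II kinases with a pleckstrin homology domain, Dgke the type III kinase, Dgkz and Dgki type IV kinases with ankyrin repeats, and Dgkq the type V kinase.

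Nuclei were isolated from mouse hippocampus and their RNA was counted in droplets with unique molecular identifiers (UMIs, one per captured RNA molecule). There was 1 library for each genotype: wild type, Total/global MAGL-KO, Astrocyte specific MAGL-KO and Neuron specific MAGL-KO. The labels name no strain, age or number of animals, and neither the deleted part of Mgll nor the driver of the restricted deletions. With 1 library per genotype no test between genotypes was possible, and intervals given below are exact 95% intervals that cover counting error only. Values in sequence are always in the order wild type, total, astrocyte and neuron knockout library, and a knockout library is named by its label throughout.

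The libraries held 8945 to 31243 barcodes and 81623644 to 193307038 UMIs, with medians of 5456 to 8904 UMIs per barcode. Pairs of libraries shared 108 to 466 barcode sequences. The library labelled total knockout stood apart: 23.8% of its barcodes that passed the filters were called doublets against 2.14% to 5.99% in the others, and 0.0127% of its nuclei had the RNA pattern of female nuclei against 41.0% to 47.1%. It also held 726 nuclei with medium spiny neuron markers, a striatal type. Mgll RNA in excitatory nuclei was 103, 80.6, 106 and 106 CPM (counts per 1000000 UMIs of the class), and in astrocytes it was 463, 364, 370.2 and 559 CPM from 20 to 124 UMIs, with overlapping intervals in the first 3 libraries. In inhibitory nuclei it was 121, 129, 141 and 124 CPM. The library labelled neuron knockout was not lower than wild type in either neuronal class. The library labelled total knockout was lower in excitatory nuclei and oligodendrocytes (54.1 against 97.0 CPM) but not in inhibitory nuclei or oligodendrocyte precursors (162 against 136 CPM). The neuronal values of the neuron knockout library, and the latter 2 of the total knockout library, did not show the loss that the labels name. The lower values of the total knockout library were partial, at 80.6 against 103 CPM in excitatory nuclei. Astrocyte intervals of the total and astrocyte knockout libraries overlapped with wild type. Whether the counts read the deleted part was not tested. Clusters were named from fixed marker lists without the kinase genes among the clustering genes, so each name means nuclei like that cell type, and the suffix "-like" is left out below. Differences between clusters are descriptions, because the same nuclei were clustered on correlated genes.

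A level is the sum of a gene's UMIs over the nuclei of a class in 1 library, as CPM of that class. Cell Ranger ARC counts introns by default, which gives long genes more nuclear reads. Levels of different genes are therefore compared per kilobase of gene, with some plain shares beside. By GENCODE M21 on GRCm38, Dgkb spanned chr12:37817726-38634239 (+, 817 kb), Dgki chr6:36846022-37300184 (-, 454 kb), Dgkg chr16:22468461-22657221 (-, 189 kb), Dgkh chr14:78558750-78732776 (-, 174 kb) and Dgkd chr1:87853287-87945180 (+, 91.9 kb). The shorter genes were Dgkz at chr2:91932824-91975864 (-, 43.0 kb), Dgke at chr11:89035179-89066850 (-, 31.7 kb), Dgka at chr10:128720134-128744855 (-, 24.7 kb) and Dgkq at chr5:108646693-108669672 (-, 23.0 kb). By that default, each count covers the exons and introns of the gene. Dgkb overlaps the antisense genes 4930428E07Rik and Gm48715, Dgki overlaps 1700111E14Rik, and Dgkq overlaps Idua and, over 2090 bases, Tmem175, which had 35956 UMIs against 6032 for Dgkq. The labels do not state strand use in counting, so reads of those partners could be shared.

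Promoter windows are printed for Dgkh and Dgkz, which have opposite extremes in granule and CA1 nuclei below, and for Dgkb, which gave the most UMIs. They come from RefSeq on GRCm38.p6, 250 bases before to 50 bases after an annotated start, read 5′ to 3′ on the gene's strand. Capitals mark the GC box GGGCGG and the TATA box TATAAA on either strand, where neighbouring matches may overlap. Of several windows of a gene, the one farthest upstream is shown. The Dgkb window is chr12:37879924-37880223 (+), the Dgkh window chr14:78732680-78732979 (-) and the Dgkz window chr2:91963514-91963813 (-).
Dgkb: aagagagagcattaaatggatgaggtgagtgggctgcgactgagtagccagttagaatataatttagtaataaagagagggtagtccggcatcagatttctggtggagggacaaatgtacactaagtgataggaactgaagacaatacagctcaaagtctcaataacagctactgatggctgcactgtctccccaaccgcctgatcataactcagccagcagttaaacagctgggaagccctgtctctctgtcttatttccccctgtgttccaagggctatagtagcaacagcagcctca
Dgkh: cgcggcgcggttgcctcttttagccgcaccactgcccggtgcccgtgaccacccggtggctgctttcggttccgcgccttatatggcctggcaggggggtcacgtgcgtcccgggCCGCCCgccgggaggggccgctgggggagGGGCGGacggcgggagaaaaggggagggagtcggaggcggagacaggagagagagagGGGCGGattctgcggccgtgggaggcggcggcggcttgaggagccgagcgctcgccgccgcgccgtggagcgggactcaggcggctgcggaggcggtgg
Dgkz: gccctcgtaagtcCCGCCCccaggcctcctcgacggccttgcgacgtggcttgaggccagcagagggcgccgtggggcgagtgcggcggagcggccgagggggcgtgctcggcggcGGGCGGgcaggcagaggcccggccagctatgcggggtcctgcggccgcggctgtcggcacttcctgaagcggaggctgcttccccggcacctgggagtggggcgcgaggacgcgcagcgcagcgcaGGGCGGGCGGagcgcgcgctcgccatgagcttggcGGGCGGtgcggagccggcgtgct
The Dgkb window held 46.3% G and C, 3 CpG dinucleotides and neither motif. The Dgkh window held 75% G and C, 40 CpG and 3 GC boxes, and the Dgkz window 77.7%, 43 CpG and 5 GC boxes. The 2 other Dgkh windows held 46% and 42% G and C and no GC box, and the other Dgkz window 61.7% and 1 GC box. Over all 32851 RefSeq windows of that length, 35.7% held a GC box, 13.6% a TATA box, and the median was 52.7% G and C with 7 CpG. All 9 genes matched, with 15 windows in total, of which 10 held a GC box and 1, of Dgka, a TATA box. Which start is used in these nuclei was not measured, and a match describes letters only.

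Among type I genes, Dgkb was high in astrocytes, CA2/CA3 pyramidal nuclei and mossy nuclei and near absent from oligodendrocytes. In CA2/CA3 it was 1533, 1767, 1540.2 and 1657 CPM. In CA1 it was 976, 1146, 1047 and 1109 CPM, below every CA2/CA3 value. In dentate granule nuclei it was 508, 653, 726 and 709 CPM, below every CA1 value. Excitatory nuclei with subicular or cortical markers held 117, 79.1, 128 and 67.8 CPM, the lowest of the neuronal classes among the 13 below. This class was cluster 13 alone, led by Kcnh8, Sntb1 and Crybg1. Clusters 9 and 41, each with 6 of 13 subicular or cortical markers raised, were counted as excitatory of no finer type. Values of the class therefore do not describe subicular or cortical neurons in general. The 13 classes with at least 20 nuclei in every library thus ran from 1882 ± 527 CPM (SD, n = 4 libraries) in astrocytes to 23.0 ± 29.5 CPM in oligodendrocytes, and astrocytes, CA2/CA3 and mossy nuclei overlapped in range.

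The astrocyte values of Dgkb were 1938, 2138, 1129 and 2325 CPM from 100, 97, 25 and 51 nuclei. The lowest, in the library labelled astrocyte knockout, rested on 61 UMIs and had an interval of 863.6 to 1450.2 CPM, below the other intervals. Summed oligodendrocyte markers in those astrocytes were 254, 268, 1610.2 and 551 CPM, highest in the same library, and their part in the lower value was not tested. At 1000 UMIs per nucleus the share of astrocytes with a Dgkb UMI was 75.8%, 80.2%, 78.3% and 85.1%, against 0 of 339 wild-type oligodendrocytes, where the exact interval for nuclei with a UMI at that depth reaches 1.08%. Outside the 13 classes, nuclei with medium spiny markers held more Dgkb than any of them, 4431 CPM in 726 nuclei of the total knockout library and 4378 CPM in 28 wild-type nuclei.

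Dgkg was a neuronal gene with overlapping levels in dentate granule, CA1 and CA2/CA3 nuclei. CA2/CA3 nuclei held 686, 801, 858 and 779.6 CPM, CA1 604, 702, 801 and 689 CPM, and dentate granule 524, 636, 720.5 and 635 CPM. The ranges of these 3 classes overlapped with each other and with somatostatin nuclei at 629.7, 702, 596 and 690.2 CPM. Within every library, though, CA2/CA3 lay above CA1 and CA1 above granule nuclei, by small ratios. The mean log2 ratio was 0.16 ± 0.04 (SD over 4 libraries) for CA2/CA3 over CA1 and -0.15 ± 0.04 for granule over CA1. Mossy nuclei (382 to 481 CPM) and excitatory nuclei of no finer type (286 to 476 CPM) lay below all 3, and subicular or cortical nuclei lower again, at 165, 173, 164 and 164 CPM. Astrocytes held 13.7 to 48.6 CPM and oligodendrocytes 9.08 to 21.7 CPM, below every neuronal value.

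Dgka was the least counted member, with 4524 UMIs in all nuclei kept. It was highest in mossy nuclei, hilar excitatory cells, at 33.7, 39.7, 42.1 and 39.5 CPM, above all values of the other 12 classes but 1 oligodendrocyte value. The mossy values came from only 30, 75, 63 and 41 nuclei and few Dgka UMIs. Mossy nuclei were not ranked under the alternative settings. Oligodendrocyte precursors, not among the 13 classes, reached 36.2 CPM. CA2/CA3 nuclei held 17.3, 22.4, 21.2 and 19.6 CPM and dentate granule nuclei 14.7, 17.3, 19.7 and 17.5 CPM. CA1 nuclei were the lowest of the 13 classes at 5.41, 6.67, 5.13 and 6.44 CPM. The oligodendrocyte values, 14.7, 8.08, 0 and 45.4 CPM, came from few UMIs and show no order.

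Among type II genes, Dgkh separated the excitatory classes. Dentate granule nuclei held 1236, 1290.3, 1168 and 1244 CPM, above every other class. Subicular or cortical nuclei came next at 442, 452, 465 and 502 CPM. CA1 nuclei held 236, 241, 226 and 259.9 CPM, and CA2/CA3 nuclei 91.5, 92.6, 94.3 and 113 CPM, the lowest neuronal class. The 4 classes did not overlap with each other. At 1000 UMIs per nucleus, 66.3% to 70.3% of dentate granule nuclei had a Dgkh UMI, against 19.3% to 24.2% in CA1. In oligodendrocytes it was 1.18% of 339 wild-type nuclei and 0.705% of 993 total knockout nuclei. The share that free RNA alone would give was not measured. Without thinning, wild-type shares were 98.8% in dentate granule, 85.9% in CA1 and 1.45% in oligodendrocytes, at medians of 8065, 11345 and 2013 UMIs.

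Dgkd differed little between classes. Lamp5 inhibitory nuclei held 173, 148, 147 and 166 CPM and dentate granule nuclei 145, 144, 153 and 160.0 CPM, with overlapping ranges. CA1 nuclei held 95.6, 94.4, 102 and 105 CPM, and oligodendrocytes 77.2 to 99.9 CPM. Subicular or cortical nuclei were lowest at 45.9, 40.2, 49.5 and 47.1 CPM, the class where Dgkh was second highest. The mean of the highest class was 3.47 times that of the lowest for Dgkd, against 71.1 times for Dgkh.

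Dgke, the type III gene, was the flattest in neurons. CA2/CA3 nuclei held 71.8, 72.8, 71.4 and 88.1 CPM, and dentate granule nuclei 51.0, 54.9, 51.8 and 54.5 CPM. Over the neuronal classes among the 13 every value lay between 47.2 and 88.1 CPM, and each class overlapped with its neighbour in the order. In astrocytes Dgke was 0, 41.2, 55.5 and 0 CPM and in oligodendrocytes 23.3, 32.3, 12.9 and 0 CPM, from at most 64 UMIs per library.

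Of the type IV genes, Dgkz was highest in CA1. CA1 nuclei held 221, 204, 211 and 253 CPM, CA2/CA3 nuclei 117, 135, 126 and 152 CPM, and dentate granule nuclei 70.3, 81.2, 80.4 and 84.5 CPM. These 3 classes did not overlap. Subicular or cortical nuclei held 44.2 to 60.2 CPM, and astrocytes 13.7 to 32.4 CPM. Dgkh and Dgkz thus had opposite extremes among the granule and CA1 classes.

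Dgki, the other type IV gene, was broad and was not called lower in oligodendrocytes, as was also so for Dgka, Dgkd and Dgkq. Mossy nuclei held 1298, 1515, 1339.9 and 1408 CPM and dentate granule nuclei 992, 1154, 1149.5 and 1118 CPM, without overlap. CA1 nuclei held 729, 798, 744 and 802 CPM and CA2/CA3 nuclei 310.0, 344, 329.6 and 330.2 CPM, also without overlap. Oligodendrocytes held 798, 874, 296 and 835 CPM from 345, 1376, 38 and 49 nuclei, and the low value, in the library labelled astrocyte knockout, came from 23 UMIs. In the same oligodendrocytes Dgkh was 6.14, 6.57, 38.6 and 18.2 CPM and Dgkg 9.82, 21.7, 12.9 and 9.08 CPM. Summed dentate granule markers there were 172.5 to 297.6 CPM against 2010.1 to 2199 CPM in granule nuclei, and CA1 markers 0 to 66.3 CPM. At 1000 UMIs, 52.2% of 339 wild-type oligodendrocytes had a Dgki UMI, against 9.47% of 95 wild-type astrocytes.

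Dgkq, the type V gene, was highest in inhibitory nuclei. Parvalbumin nuclei held 24.3, 36.8, 30.3 and 31.9 CPM and somatostatin nuclei 27.8, 27.1, 32.4 and 32.0 CPM. Dentate granule nuclei were lowest at 9.25 to 11.8 CPM. The highest class mean was 2.87 times the lowest, the smallest span of the 9 genes.

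**Figure D1:**
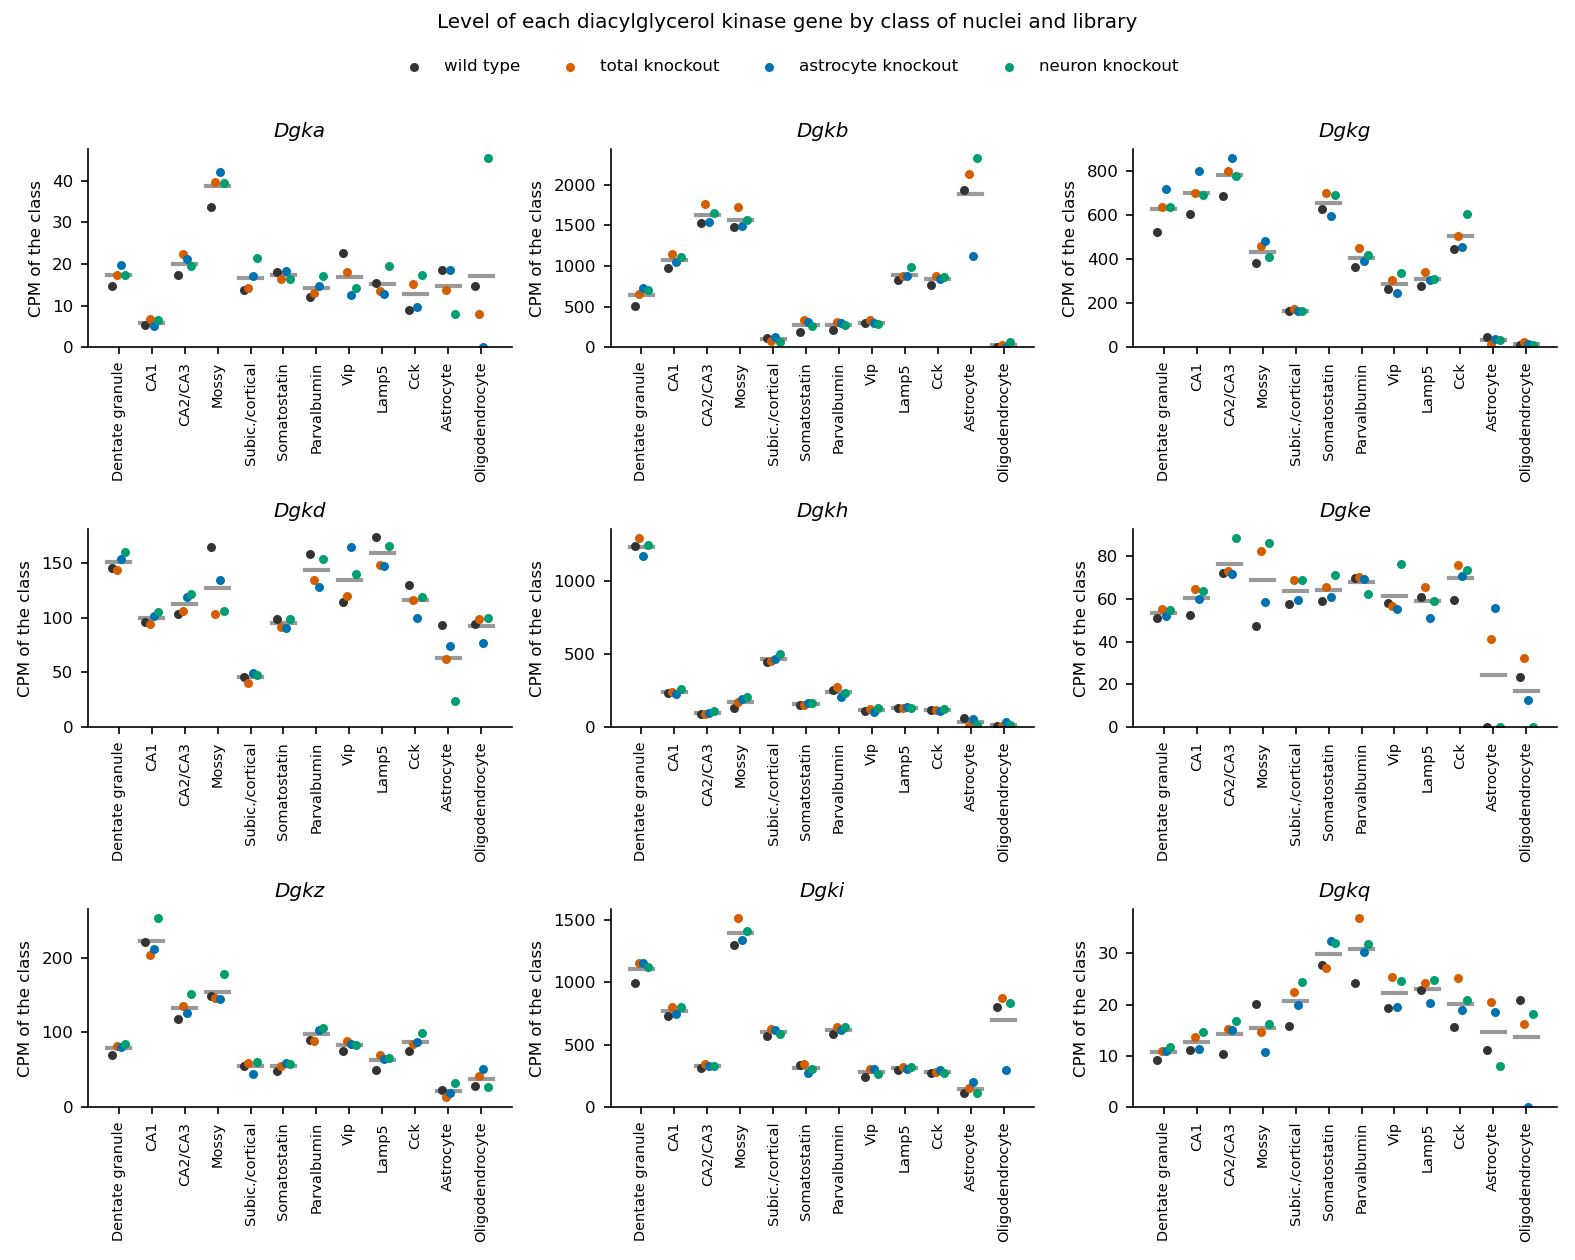
Level of each diacylglycerol kinase gene (vertical axis, CPM, from 0) in 12 of the 13 classes with at least 20 nuclei in every library, leaving out excitatory nuclei of no finer type. Each point is 1 library, coloured by its label, and the grey line is the mean of 4 libraries. Dgkh is highest in dentate granule nuclei (1168 to 1290.3 CPM) and Dgkz in CA1 (204 to 253 CPM), while Dgki in oligodendrocytes reaches 874 CPM.

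Per kilobase of gene the leading member changed with the class. The leader could depend on this scaling, and whether nuclear UMIs rise in proportion to gene length was not tested. In wild-type CA1, Dgkb held 33.3% and Dgkz 7.53% of summed CPM, but 7.53% and 32.3% per kilobase. In wild-type granule nuclei Dgkh led either way, with 34.8% of summed CPM and 38.4% per kilobase. Dgkh made up 35.6% of the family's summed CPM per kilobase in dentate granule nuclei, averaged over the libraries, and Dgkz 30.3% in CA1. Dgkg led in CA2/CA3 with 26.6% and in somatostatin nuclei with 29.5%. Dgkb led in astrocytes with 38.5%, and Dgki in oligodendrocytes with 27.4%. In the astrocyte knockout library, which had the fewest nuclei of both types, Dgke led in astrocytes (25.4% against 20.1% for Dgkb), from 3 UMIs. Dgkz led in its oligodendrocytes (35.3%, with Dgki at 19.3%), which held 77759 UMIs of all genes. In oligodendrocytes of the neuron knockout library, with 110132 UMIs of all genes, Dgki (28.7%) and Dgka (28.6%) were level. These orders within a library rest on few kinase UMIs and show no change of leading kinase. Dgkb, which gave the most UMIs of the family (295763 in all nuclei kept), made up 3.97% per kilobase in dentate granule nuclei. The plain sum over the 9 genes was 3927 ± 252 CPM (SD, n = 4 libraries) in dentate granule, 3177 ± 169 in CA1, 1820.5 ± 106 in inhibitory nuclei and 932 ± 301 in oligodendrocytes.

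Dentate granule and CA1 nuclei were compared within each library. A gene was called where the mean ratio was at least 2-fold, all libraries lay on the same side and the CPM ranges did not overlap. By this rule 18.4% of 14799 genes tested were called, 9.63% higher and 8.8% lower in granule nuclei. Of the 9 kinases, 3 were called. Dgkh was 5.13-fold higher in dentate granule nuclei, with a mean log2 ratio of 2.36 ± 0.07 (SD over 4 libraries). Dgka was 2.92-fold higher (1.55 ± 0.26), and Dgkz was 2.81-fold higher in CA1 (log2 ratio -1.49 ± 0.15). Dgkb (-0.73 ± 0.18), Dgkd (0.60 ± 0.01) and Dgki (0.52 ± 0.08) had separate ranges with under 2-fold difference. Dgkg, Dgke and Dgkq overlapped in range, with log2 ratios below 0 in all 4 libraries for each. The median log2 ratio of the 9 genes was -0.15, beside 0.07 for all genes tested.

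CA2/CA3 and CA1 nuclei differed at 12.6% of 14062 genes (5.65% higher, 6.91% lower in CA2/CA3), and 3 of the 9 kinases were called. Dgka was 3.40-fold higher in CA2/CA3 (log2 ratio 1.77 ± 0.20). Dgkh was 2.46-fold lower (-1.30 ± 0.09) and Dgki 2.34-fold lower (-1.23 ± 0.04). The CA2/CA3 class pools 2 unlike clusters, 5 and 33, described below. In cluster 33 mean Dgka (4.67 CPM) and Dgkb (554 CPM) were below their CA1 means, 5.91 and 1069 CPM. Dgkh (164 CPM) and Dgki (483 CPM) there also lay below CA1, at 241 and 768 CPM. When each nucleus was gated by its own marker UMIs without clustering, Dgka was still called but Dgkh and Dgki were not, at log2 ratios of -0.85 and -0.86. The Dgkb ratio, 0.60 ± 0.04 with clusters, became 0.03 with gating. Gating kept 39, 39, 75 and 57 CA2/CA3 nuclei, against 419 to 861 in the clusters.

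Inhibitory and excitatory nuclei differed at 21.6% of 17604 genes (10.0% higher, 11.6% lower in inhibitory nuclei), and 2 of the 9 kinases were called. Dgkh was 2.71-fold lower in inhibitory nuclei (-1.44 ± 0.05) and Dgki 2.06-fold lower (-1.04 ± 0.04). The excitatory sum pools unlike classes. Mean Dgkh was 1235 CPM in granule, 241 in CA1 and 97.8 in CA2/CA3 nuclei, against 166 in all inhibitory and 242 in parvalbumin nuclei. Mean Dgki was 329 CPM in CA2/CA3, below the 387 CPM of inhibitory nuclei. Dgkq was 1.89-fold higher (0.93 ± 0.07), at 23.2, 28.8, 26.2 and 27.7 CPM against 11.4, 15.2, 13.8 and 15.4 CPM. The Dgkq ratio of means, 0.92 on the log2 scale, reached 1.03 in male nuclei alone and after thinning, where it was called. Gating single nuclei left neither Dgkh (log2 ratio of means -0.89, from -1.44) nor Dgki (-0.96, from -1.04) called, and Dgki was also uncalled with doublets kept (log2 ratio of means -0.94) and in male nuclei alone (-0.99).

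Oligodendrocytes and excitatory nuclei differed at 40.7% of 17105 genes (11.9% higher, 28.8% lower in oligodendrocytes), and 5 of the 9 kinases were called, all lower in oligodendrocytes. Dgkg held 13.4 ± 5.8 CPM against 545 ± 90.8 CPM (SD, n = 4 libraries), and Dgkh 17.4 ± 15.2 against 449.9 ± 25.9 CPM. Dgkb, Dgke and Dgkz were also lower, with Dgkb at 0 UMIs in 1 library. Dgki overlapped at 700.7 ± 272 against 797 ± 34.8 CPM, and Dgkd differed by under 2-fold. Keeping doublets left 3 called, without Dgke and Dgkz, and moved the Dgkh log2 ratio of means from -4.70 to -2.15. Gating single nuclei left 4 called, without Dgkh at -0.81.

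Oligodendrocyte precursors had at least 20 nuclei in 3 libraries (285, 654 and 21), and 33.2% of 16563 genes were called against excitatory nuclei, 11.5% higher and 21.7% lower. Of the 9 kinases 6 were called. Dgka was higher, at 36.2, 29.7 and 14.9 CPM against 10.5 to 12.8 CPM, with 1 UMI behind the value in the astrocyte knockout library. Dgkg, Dgkh, Dgke, Dgkz and Dgki were lower. Dgkb was not apart, at 628, 715 and 807 CPM in precursors against 679 to 917 CPM, while mature oligodendrocytes held at most 63.6 CPM. Without the wild-type library 4 were called, losing Dgka and Dgkz, and without the astrocyte knockout library 5, losing Dgke.

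**Figure D2:**
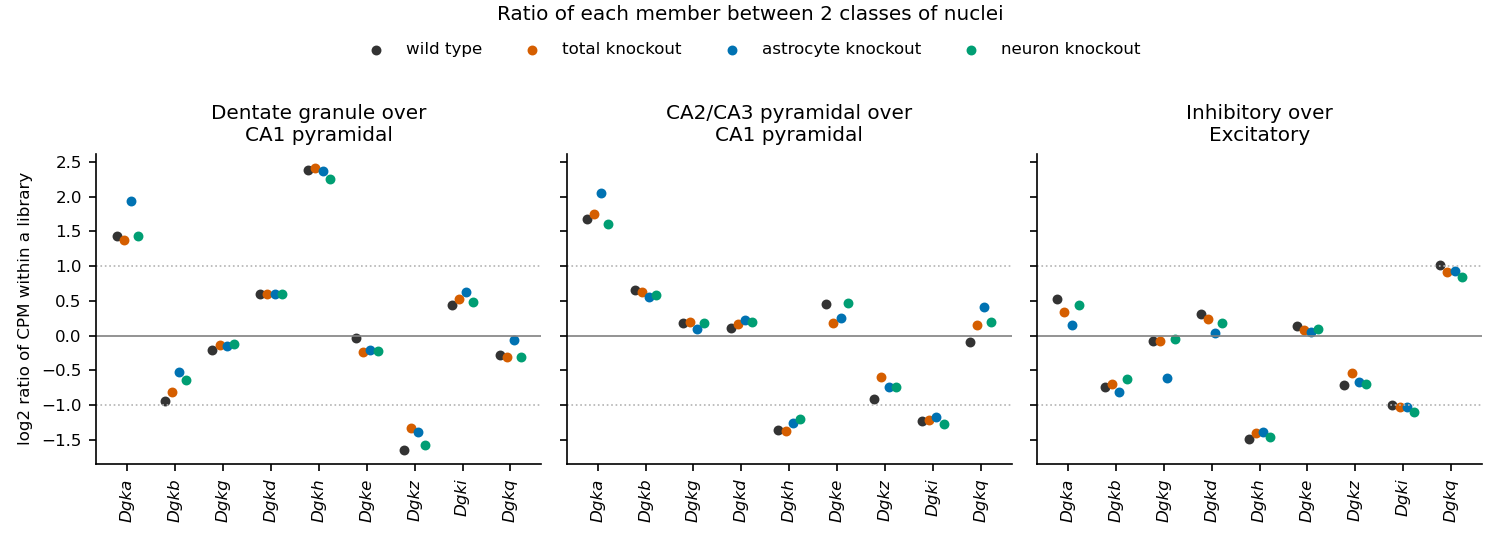
Log2 ratio of class levels within a library (vertical axis) for each kinase in 3 class comparisons, with 1 point per library coloured by its label and dotted lines at a 2-fold difference. The Dgkh points for dentate granule over CA1 lie near 2.36, and those of Dgkz near -1.49.

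Within classes the kinases also differed between clusters, which is a description because the nuclei were clustered on their expression. Dentate granule nuclei formed 3 clusters. Cluster 2, led by Mylk3, Gpnmb, Plk5 and C1ql2, held 1055 ± 137 CPM of Dgkb (SD, n = 4 libraries) against 404 ± 53.8 CPM in cluster 0, led by Dsp, Il1r1 and Npnt. Dgkh ran the other way, with 915 CPM in cluster 2 and 1475 CPM in cluster 0. Neither gene's library ranges overlapped between these clusters. Cluster 2 was 22.9%, 32.7%, 30.0% and 29.7% of the granule nuclei of the libraries, lowest in wild type. Cluster 12, led by Slc38a11, Trhr and Stk32b, held 776 CPM of Dgkb and 995 CPM of Dgkh.

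CA2/CA3 nuclei formed 2 clusters with a wider split. Cluster 33, led by Lrp2, Fyb2, Amigo2 and Vit, held 554 CPM of Dgkb (514 to 573) against 1832 CPM (1734 to 1984) in cluster 5, led by Ifi203, Mndal and Cd109. Dgka was 4.67 CPM in cluster 33 and 23.1 CPM in cluster 5. Dgkg was higher in cluster 33, at 1098 against 719 CPM, as were Dgkh at 164 against 84.9 CPM and Dgki at 483 against 299 CPM. Cluster 33 made up 15.1% to 17.6% of the class. In CA1, cluster 4 over cluster 1 had more Dgkb (log2 ratio 0.47 ± 0.08) and Dgkg (0.48 ± 0.05) and less Dgkz (-0.73 ± 0.06), Dgki (-0.49 ± 0.06) and Dgkh (-0.43 ± 0.06).

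**Figure D3:**
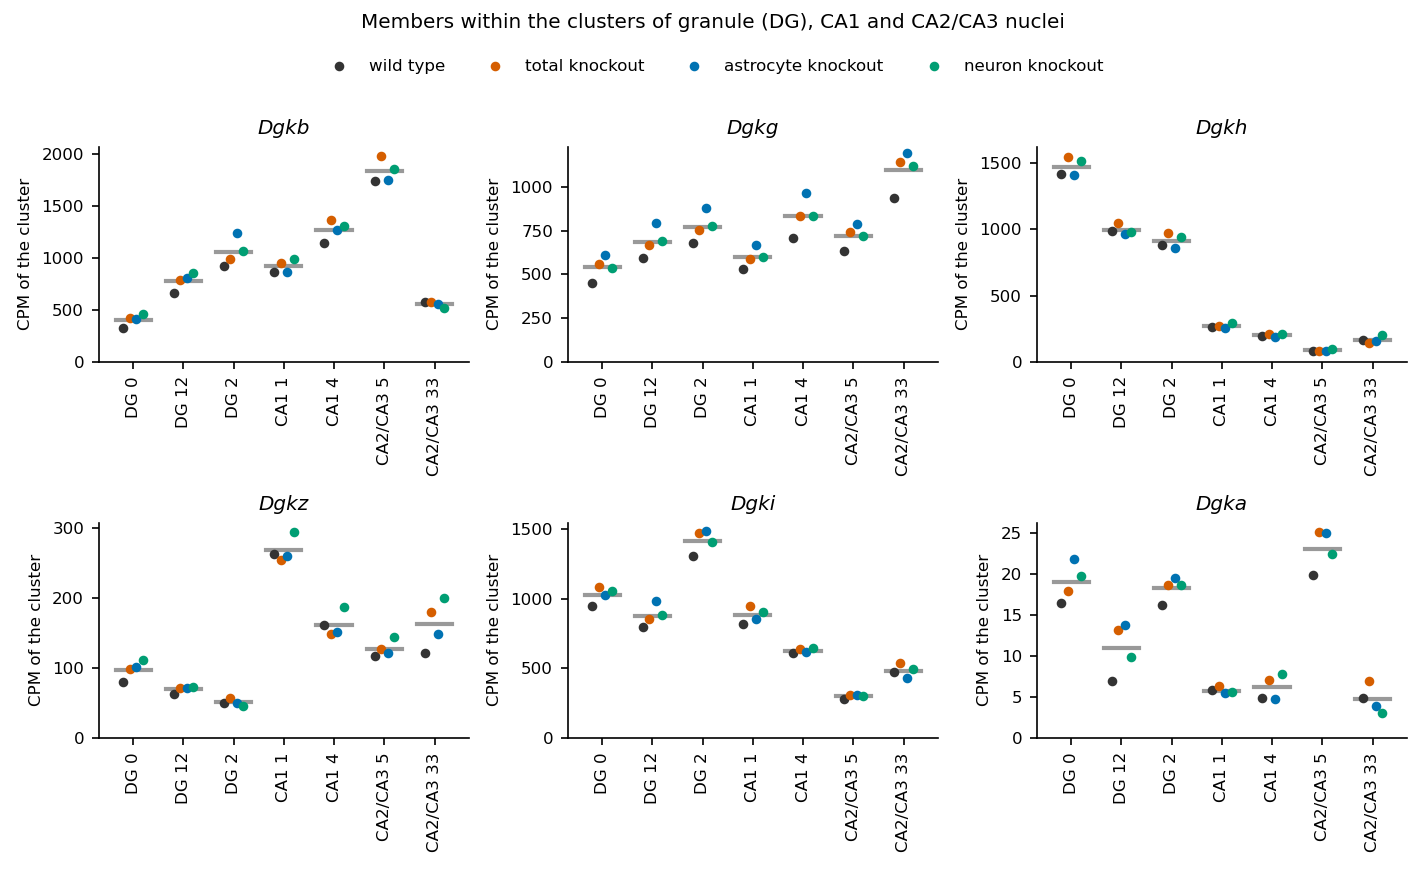
Level (vertical axis, CPM, from 0) of 6 kinases in the clusters that make up the dentate granule (DG), CA1 and CA2/CA3 classes. Points are libraries coloured by label and grey lines their means. Dgkb is 1055 CPM in dentate granule cluster 2 and 404 CPM in cluster 0, and in CA2/CA3 it is 554 CPM in cluster 33 and 1832 CPM in cluster 5.

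The other genes of diacylglycerol metabolism were read from 4 lists. Between dentate granule and CA1 nuclei, where 9.63% of all genes were higher and 8.8% lower, 2 of 10 tested phospholipase C genes were higher and 3 lower, and 1 of 6 lipase and hydrolase genes was higher. Of 13 diacylglycerol effectors 4 were higher and 5 lower, and of 12 phosphatidic acid enzymes 2 were higher and 3 lower. The highest ratios were those of Trpc6, a diacylglycerol-gated channel also used to name granule nuclei (591 against 6.78 CPM), Plcg2 (25.2 against 0.413 CPM) and Chn2 (16.8 against 1.04 CPM). The lowest were Plch2, Prkcb, a diacylglycerol-activated protein kinase C (129 against 900.3 CPM), and Plpp3, a phosphatidic acid phosphatase. Between CA2/CA3 and CA1, Prkcd (17.8 against 0.203 CPM) and Mgll (148 against 60.1 CPM) were among the highest ratios, and Plch1, Cds1 (6.69 against 86.1 CPM) and Prkd1 the lowest.

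Between inhibitory and excitatory nuclei, where 21.6% of all genes were called, 5 of 19 effectors were higher and 9 lower. Of 12 phospholipase C genes 1 was higher and 2 lower, of 6 lipase and hydrolase genes 2 were lower, and of 14 phosphatidic acid enzymes 1 was higher and 1 lower. The lists were not tested against each other. Prkcq, Prkd3 and Rasgrp2 had the highest ratios, and Rasgrp1, a Ras activator that binds diacylglycerol, was among the lowest at 14.6 against 134 CPM. In oligodendrocytes 4 of 19 effectors were higher and 11 lower against excitatory nuclei, beside 11.9% and 28.8% of all genes. Prkcq held 278 against 0.239 CPM, Prkd3 220.0 against 0.706 CPM and Rasgrp3 189 against 0.865 CPM. Dgkk, another diacylglycerol kinase gene, was near absent, at 0.745 CPM in excitatory nuclei.

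The profile over the 13 classes was compared with 12599 genes by Pearson r of log2(mean CPM + 1), as a description over classes that share libraries. Dgkb was most like 4930428E07Rik (r = 0.98) and Dgki most like 1700111E14Rik (r = 0.98), both antisense genes inside the respective locus. Dgke was most like Iqsec3 (r = 0.99), Dgkg like Stxbp5 (r = 0.97), Dgkq like Scyl2 (r = 0.97) and Dgkh like C130036L24Rik and Slc16a10 (r = 0.94 for both). Dgkd was most like Sag (r = 0.90) and Dgkz like Gm15965 (r = 0.90). Dgka had no close match, with r = 0.78 for Zyx. Between members, Dgkg and Dgke were the most alike (r = 0.93).

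Each knockout library was compared with the wild-type library within the dentate granule, CA1, CA2/CA3 and inhibitory classes, giving 36 gene and class pairs per library. These comparisons share the wild-type library, so a high or low wild-type value moves all 3 together. A 1.5-fold difference was used as the call. In the total knockout library 0 of 36 pairs were called (log2 ratios -0.17 to 0.54), where 7.45%, 8.22%, 7.19% and 7.51% of all genes were called in the 4 classes. In the astrocyte knockout library 0 of 36 were called (-0.19 to 0.53), where the shares were 7.29%, 5.15%, 4.85% and 6.94%. In the neuron knockout library 1 of 36 was called (-0.04 to 0.68), where they were 6.71%, 6.92%, 7.27% and 7.19%. That pair was Dgkq in CA2/CA3, at 16.8 CPM (113 UMIs) against 10.5 CPM (75 UMIs), a log2 ratio of 0.68 with an interval of 0.25 to 1.12. The other 2 knockout libraries, total and astrocyte, gave 0.54 and 0.53 for it. Thinning to 1000 UMIs turned the neuron knockout value to -0.38 with an interval of -2.43 to 1.60. Over the settings run, the lowest values of the total and astrocyte knockout libraries were -0.30 and -0.70.

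Dgkb was higher than wild type in granule nuclei of each knockout library, below the 1.5-fold call. The log2 ratios were 0.36 (0.32 to 0.40) in the total, 0.52 (0.47 to 0.56) in the astrocyte and 0.48 (0.44 to 0.52) in the neuron knockout library. The wild-type value, 508 CPM, was the lowest of the 4. Cluster 2, the granule cluster with the most Dgkb, was the least frequent in wild type. Within the 3 granule clusters, all 9 ratios lay above 0, between 0.10 and 0.47, each with its interval above 0. In male nuclei the ratios were 0.38, 0.17 and 0.43, and in female nuclei, absent from the total knockout library, they were 0.77 and 0.54. Inhibitory nuclei gave 0.32, 0.35 and 0.38, CA1 0.23, 0.10 and 0.18, and CA2/CA3 0.20, 0.01 and 0.11. A low wild-type library and an effect of the genotypes cannot be told apart.

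Dgkg followed in granule nuclei with log2 ratios of 0.28, 0.46 and 0.28, and in CA1 with 0.22, 0.41 and 0.19. CA2/CA3 gave 0.22, 0.32 and 0.18, and inhibitory nuclei 0.22, 0.03 and 0.27. All 9 ratios within granule clusters lay above 0 (0.15 to 0.43). In male granule nuclei they were 0.26 to 0.32, and in female nuclei 0.27 to 0.62. Dgkh, the most abundant member of the class per kilobase, had ratios of 0.06, -0.08 and 0.01. The 9 kinases had a median log2 ratio in granule nuclei of 0.22, 0.21 and 0.25, beside -0.05, -0.05 and -0.03 for all genes tested. Elsewhere the kinase medians were less even, at 0.22, 0.03 and 0.19 in CA1 and 0.20, 0.11 and 0.22 in CA2/CA3. In inhibitory nuclei they were 0.11, 0.01 and 0.19, and in excitatory nuclei of no finer type 0.08, 0.09 and 0.09. A shift of the family as a whole was not tested.

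Subicular or cortical nuclei and excitatory nuclei of no finer type were the other excitatory classes with at least 100 nuclei in each library. In the former, called shares of all genes were 7.14%, 7.78% and 9.19%. Dgkb was below wild type in the total knockout library (log2 ratio -0.56, -0.81 to -0.31) and called lower in the neuron knockout library (-0.78, -1.07 to -0.50), with 0.13 in the astrocyte knockout library. In male nuclei of that class it was -1.01, -0.71 and -1.40, and in female nuclei 0.98 and -0.58 in the astrocyte and neuron knockout libraries. Dgka and Dgkq were called higher in the neuron knockout library there, from 51 and 58 UMIs. In excitatory nuclei of no finer type, 7.83%, 8.12% and 6.3% of genes were called, and Dgkb (0.63, 683 against 441 CPM) and Dgkg (0.73, 476 against 286 CPM) were called higher in the astrocyte knockout library. The makeup of this mixed class differed between libraries. Cluster 23 held 30 of its 2566 wild-type nuclei, 573 of 6551 in the total, 184 of 2485 in the astrocyte and 24 of 2514 in the neuron knockout library, and cluster 28 held 158, 506, 15 and 17. The part of this makeup in the ratios was not tested.

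**Figure D4:**
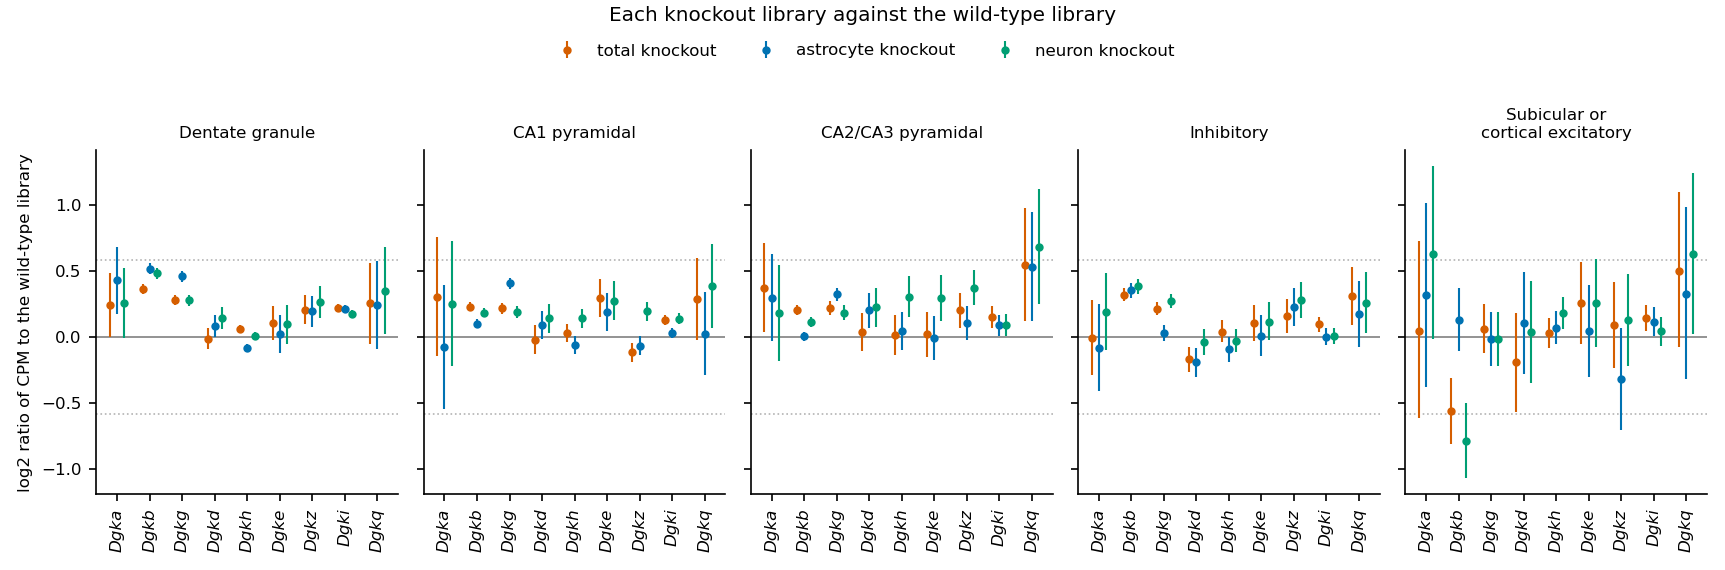
Log2 ratio of each knockout library to the wild-type library (vertical axis) for the 9 kinases in 5 classes. Points are ratios coloured by library label, bars are exact 95% counting intervals, and dotted lines mark 1.5-fold. Dgkb lies at 0.36 to 0.52 in dentate granule nuclei and at -0.78 to 0.13 in subicular or cortical nuclei.

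The other genes of the pathway were read by the same rule. In the 4 classes each of the 4 lists had 0 to 2 genes past 1.5-fold in either direction in any knockout library. In granule nuclei the diacylglycerol effector list had 1 of 12 tested higher in each knockout library and 1 lower in the astrocyte knockout library, and the phospholipase C, lipase and phosphatidic acid lists had 0. The shares of all genes called there, 7.45%, 7.29% and 6.71%, would amount to about 1 gene in a list of 12. The effector above the threshold in each library was Rasgrp1, at 43.5, 65.5 and 43.3 CPM against 28.6 CPM in wild type, and the lower one was Unc13c, a Munc13 vesicle priming protein, at 15.7 against 24.9 CPM.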

How the data were processed

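Single-nucleus RNA libraries from hippocampus of 4 genotypes, 1 library each, were analysed from the raw UMI counts per gene and nucleus that the authors deposited. Per the submitters' processing notes, reads were processed with Cell Ranger ARC 2.0.0 on mm10. The 20211 symbols found in all libraries were used. Nuclei with at least 500 detected genes and under 5% mitochondrial UMIs were kept (8646 to 23567 per library after Scrublet doublet calls at 0.8% per 1000 nuclei), and clustered with scanpy 1.11.5 (2000 variable genes without the kinases, 30 components, 15 neighbours, leidenalg 0.10.2 at resolution 1). Clusters were named from 22 fixed marker lists where at least 3 markers and 50% of a list were detected in 10% of nuclei and 2-fold raised. Clusters without such a name were called excitatory of no finer type where at least 4 excitatory markers were detected in 25% of nuclei, raised or not, and fewer than 3 inhibitory markers were raised; 7.18% to 12.6% of nuclei stayed unnamed. Counts were summed per library and class into CPM, with exact Poisson intervals for levels, conditional binomial intervals for ratios and Clopper-Pearson intervals for shares, all at 95%. Genes needed at least 100 UMIs. Shares were also taken after thinning nuclei to 1000 UMIs. No test between genotypes was made, since each has 1 library; PCR duplicates were removed by UMIs, and intervals cover counting error only.

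All 9 kinases are named. Pathway genes were counted from 4 lists and named where they had the 3 highest or 3 lowest ratios of a comparison, except that 1 is not reported here. The kinases, lists and comparisons were chosen with earlier results of these data known. The calling steps were tested on simulated data with known changes. Alternatives were doublets kept, resolution 2, gating of single nuclei, male nuclei only, thinning, at least 1000 genes, leaving out each library, other fold and UMI thresholds, and ratios centred on the median. Female nuclei only were added after seeing the data.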

Additional observations from a re-analysis of the deposited data

Results flagged for a closer look

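Dgkb was flagged because its ratio to wild type had opposite signs in 2 classes of the same library, with counting intervals that did not include 0. In the library labelled neuron knockout, the log2 ratio was 0.48 in dentate granule nuclei and -0.78 in subicular or cortical excitatory nuclei. In the library labelled total knockout, it was 0.47 in excitatory nuclei of no finer type and -0.56 in subicular or cortical excitatory nuclei. The difference between the classes was not tested, since there was 1 library per genotype. Both comparisons use the same wild-type library, and the wild-type subicular or cortical value rested on 295 UMIs in 244 nuclei of cluster 13. Male nuclei of that class gave values below 0 in all 3 knockout libraries, from -1.40 to -0.71, and female nuclei gave 0.98 in the astrocyte and -0.58 in the neuron knockout library.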

How the results depend on the processing

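No paired comparison of genotypes was possible, because each genotype has 1 library and the labels give no replicate numbers. Class comparisons were made within each library. Shares of all genes called are given for the main settings only. Counts of called kinases under other settings, here and above, have no such share beside them and are descriptions. For dentate granule over CA1, 3 kinases were called, 5 at a 1.5-fold threshold and 1 at 3-fold. For CA2/CA3 over CA1, 3 were called, 5 at 1.5-fold, 1 at 3-fold and 1 when single nuclei were gated by their own markers. For inhibitory over excitatory nuclei, 2 were called, 5 at 1.5-fold, 0 at 3-fold, 0 with gating and 1 with doublets kept. For oligodendrocytes 5 were called and 3 with doublets kept. For oligodendrocyte precursors 6 were called, 2 at 3-fold, and 4 to 6 when each library was left out in turn. Against wild type, 36 pairs per library were tested in the main setting. The UMI threshold was applied again in the other settings, so pairs with too few UMIs dropped out untested. A call lost with gating or thinning can therefore be a pair that was no longer tested. Calls in the total knockout library went from 0 to 1 at resolution 2, in male nuclei and after thinning. They went to 2 with gating and to 3 at the lower fold threshold tried. In the astrocyte knockout library they went from 0 to 1 at resolution 2, 1 with gating, 1 in male nuclei, 1 after thinning, 2 in female nuclei and 7 at that lower threshold. In the neuron knockout library they went from 1 to 0 with gating, 2 in male nuclei, 2 in female nuclei, 6 at that lower threshold and 0 at 2-fold. Counts in female nuclei used the fold threshold without the UMI threshold, so they are not calls by the same rule. The Dgkq ratio in CA2/CA3 of the neuron knockout library turned from 0.68 to -0.38 after thinning. Over all 108 kinase ratios to wild type the sign was kept in 90 after thinning, 96 with gating, 93 in male nuclei, 103 at resolution 2, with doublets kept and after centring, and 108 at 1000 genes. The share of dentate granule nuclei with a UMI lay on one side of the CA1 share in every library for 9 kinases with all UMIs and for 8 after thinning, and the side of Dgke turned from lower to higher in granule nuclei. Apart from thresholds, which set the counts directly, the cause was not tested. No ratio between classes changed sign among those called. Dgkb in dentate granule nuclei kept intervals above 0 in each knockout library under every setting run, as did Dgkg there and Dgkb in inhibitory nuclei. Depth limits Dgka and Dgkq most, and astrocytes and oligodendrocytes of the astrocyte and neuron knockout libraries.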
